A study of Mus musculus with 6 samples.

Results

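The DNA damage response and repair genes described here are 30 mouse genes that were listed by name: 6 genes of damage signalling, 3 of the MRN complex, 5 of homologous recombination, 2 of Fanconi crosslink repair, 4 of non-homologous end joining, 3 of single-strand break and base excision repair, 2 of mismatch repair, 3 of nucleotide excision repair, and the replication clamp with its ligase. All 30 were found by symbol among the 55487 genes of the deposited count table, and the rule is a list of names with no threshold on a measured value. Their messages were compared between 3 metformin and 3 control libraries of mouse oocytes.

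The metformin libraries came from oocytes matured in vitro in M16 medium with metformin, the biguanide prescribed for type 2 diabetes, and the control libraries from oocytes matured in the same medium without it. All oocytes shared the rest of the protocol: follicle growth was primed with 10 IU of PMSG (pregnant mare serum gonadotropin), germinal-vesicle oocytes were taken from antral follicles 46 to 48 h later, freed of cumulus cells, and cultured for 16 h under oil to metaphase II. The series title names aged mice. The labels give neither age nor strain, do not say which of the protocol's doses (10, 20 or 50 μM) the sequenced oocytes received, and do not give the number of oocytes or animals behind a library. No young group was among the samples used here, so the comparison holds metformin against no metformin at 1 stage.

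The metformin libraries held 9914600, 10177033 and 10588292 counted reads, and the control libraries 9289433, 8622281 and 10113655. Of 12 oocyte markers, 11 averaged between 426 and 10871 CPM (read counts relative to the TMM-scaled size of each library) in metformin and between 475 and 10244 CPM in control libraries; the exception was Figla, a transcription factor of early oocytes, at 1.76 ± 0.823 CPM in metformin and 2.08 ± 0.866 CPM in control libraries. Gdf9, an oocyte growth factor, averaged 7260.4 ± 981 CPM in metformin and 7194 ± 181 CPM in control libraries (SD, n = 3 each, as for all errors of CPM values). Zp3, a zona pellucida protein, averaged 723 ± 179.7 CPM in metformin and 768 ± 112 CPM in control libraries. Mos, the kinase that holds the egg at metaphase II, averaged 1430.1 ± 188 CPM in metformin and 1502 ± 96.2 CPM in control libraries. The 12 cumulus and granulosa markers summed to between 65.1 and 77.8 CPM in metformin and between 68.4 and 71.7 CPM in control libraries. Cyp19a1 led them at 41.8 ± 5.65 CPM in metformin and 38.5 ± 2.26 CPM in control libraries. Nr5a2 followed at 16.4 ± 0.337 and 18.6 ± 2.36 CPM, and Kitl at 9.56 ± 1.41 and 10.3 ± 1.31 CPM, in the same order. Amh, Foxl2 and Ptx3 were at 0 reads in all 6. The 10 theca, stroma and endothelial markers summed to between 26.5 and 37.7 CPM in metformin and between 30.3 and 36.4 CPM in control libraries. Pecam1 made up most of this, at 27.8 ± 6.04 CPM in metformin and 27.7 ± 0.901 CPM in control libraries. Cyp17a1 was at 0 reads in all 6. The 9 blood and immune markers summed to between 1.28 and 2.28 CPM in metformin and between 1.70 and 33.3 CPM in control libraries. Adgre1 and Cd3e were at 0 reads in all 6. The 33.3 CPM were in control replicate 1 and were mostly globin. There Hba-a1 had 129 reads, Hbb-bt 70, Hbb-bs 60 and Hba-a2 22, against 0 to 2 in any other library. Col1a1 and Col1a2 were also highest in that library, at 25 and 20 reads. The part of such other cells in the results below was not tested.

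An oocyte inherits its repair capacity from mRNA and protein stored during growth, since transcription is shut down before meiosis resumes and stays off at metaphase II. The kinase ATM, alerted by the MRN complex at double-strand breaks, and the kinase ATR, alerted by single-stranded DNA, pass the signal to CHEK2 and CHEK1. Breaks are then rejoined by homologous recombination (with BRCA1, PALB2 and BRCA2) or by end joining (Ku, DNA-PKcs and ligase 4), while mismatches, damaged bases and bulky adducts have their own excision pathways. The libraries were primed on poly(A) tails, so a change in tail length as well as a change in message number can alter what was captured. In a pooled library a smaller number of oocytes that carry a message cannot be told apart from less message per oocyte, and no spike-in was used.

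No repair gene passed the test between metformin and control oocytes. Of the 30 genes, 29 had enough reads to be tested, all but Ercc1, and 0 passed an adjusted p of 0.05 by edgeR's quasi-likelihood test with Benjamini-Hochberg adjustment over all 12793 genes tested; the smallest adjusted p among them was 1.00. In the same fit 5 of the 12793 genes passed (0.0391%), 3 of them higher in metformin (0.0235%) and 2 lower (0.0156%). DESeq2 and limma-voom called 0 repair genes as well. At an unadjusted p under 0.05 by edgeR, 1 repair gene was left (Pcna), against 1.5% of all genes tested. Over a further list of 159 genes of the same and neighbouring pathways, 143 were tested and 0 called by edgeR, 2 with an unadjusted p under 0.05 (Fancm and Apex2). Of these 143 genes, 79 were fitted higher and 64 lower, with no overlap between the groups for 6 (4.20%). The data bounded the differences: the 95% interval of the log2 fold change lay within 1 log2 unit on either side of 0, that is within a doubling or halving, for 28 of the 29 genes, Mlh3 being the exception.

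Fitted log2 fold changes (metformin over control) ran from -0.72 for Mlh3 to 0.45 for Xpa, with a median of -0.05, beside a median of 0.01 over all genes tested. The median standard error (SE) of a repair gene was 0.186. In the fit, 9 of 29 genes were fitted higher in metformin and 20 lower, against 52.5% of all genes fitted higher. This split rested on single libraries. Without metformin replicate 3 it was 14 higher and 15 lower, and without metformin replicate 1 it was 6 higher and 24 lower of 30 tested. In 5 of 29 genes (17.2%) the groups did not overlap, against 5.63% of all genes tested. Pcna and Xpa were higher in all metformin libraries than in any control library, against 2.84% of all genes in that direction. Palb2, Prkdc and Mlh3 were lower in all of them, against 2.79%.

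**Figure D1:**
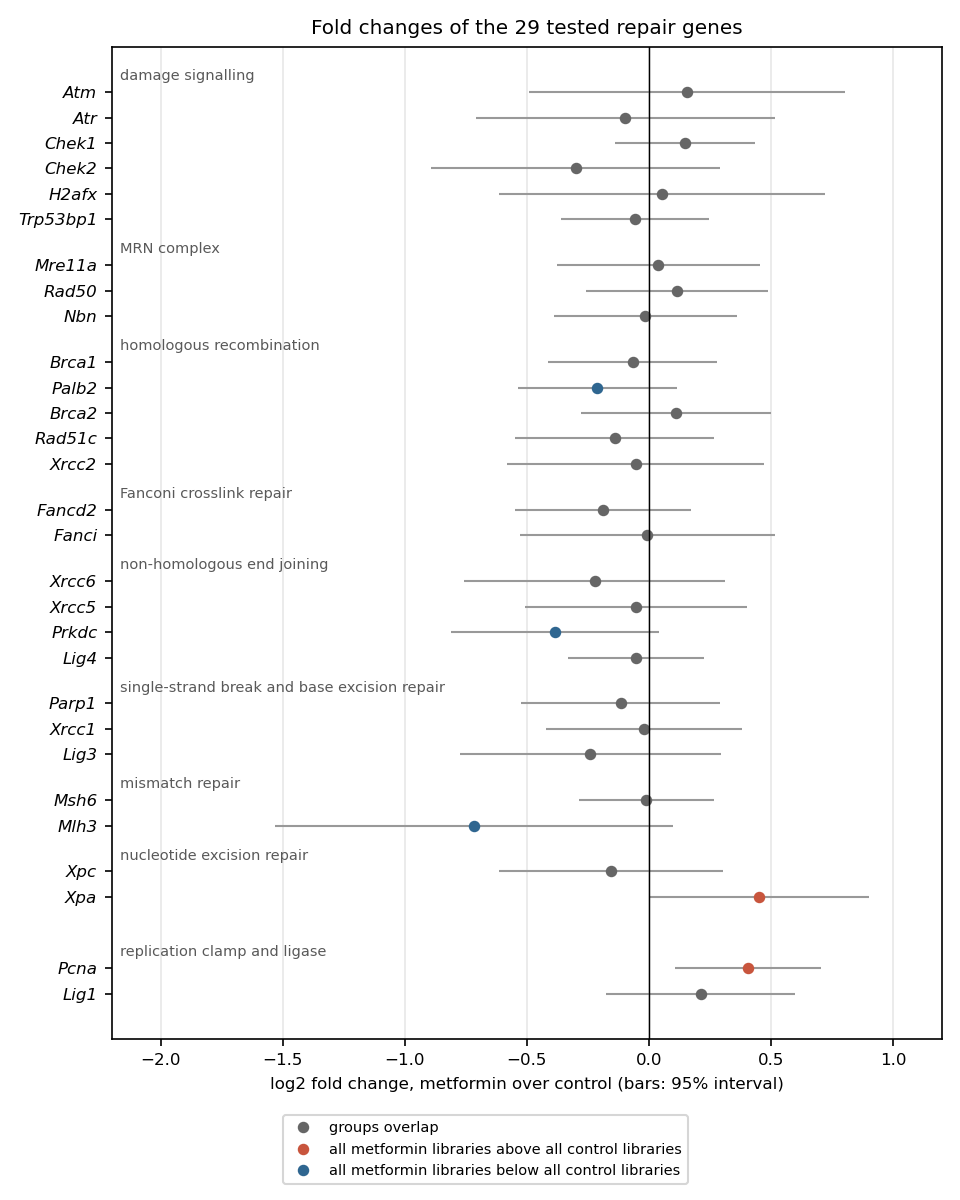
Fitted log2 fold change, metformin over control, of the 29 tested repair genes by pathway, with bars for the 95% interval from edgeR's fit on 3 libraries each. The bar of Pcna alone lies clear of 0, at 0.11 to 0.70, and that of Mlh3 is the widest, reaching -1.53; coloured points mark the 5 genes whose groups do not overlap.

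The repair genes spanned about 3 orders of magnitude in level, far more than they differed between the groups. Levels are compared between genes as CPM per kilobase of the principal transcript in the GENCODE M21 annotation, averaged over the 6 libraries (SD over the 6). Chek1 led at 240.3 ± 21.3 CPM per kilobase, above 97.5% of all genes tested, and was followed by Pcna at 126.7 ± 22.6, Msh6 at 59.5 ± 3.24, Rad50 at 58.6 ± 9.76 and Lig4 at 26.0 ± 0.986 CPM per kilobase. Msh6 and Rad50 did not differ beyond their spread, and neither did the genes that follow Lig4, Brca2 (21.7 ± 4.01), Xrcc5 (21.6 ± 4.30), Palb2 (18.5 ± 2.07) and Brca1 (18.3 ± 2.28 CPM per kilobase). At the low end stood Prkdc at 0.985 ± 0.170, Atm at 0.718 ± 0.203, Ercc1 at 0.496 ± 0.228 and Mlh3 at 0.246 ± 0.0756 CPM per kilobase, the last above 1.89% of all genes tested. Summed over all 30 genes, repair messages made up 2747 ± 297 CPM in metformin and 2602 ± 126 CPM in control libraries, and damage signalling alone took 40.1% of the total through Chek1.

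**Figure D2:**
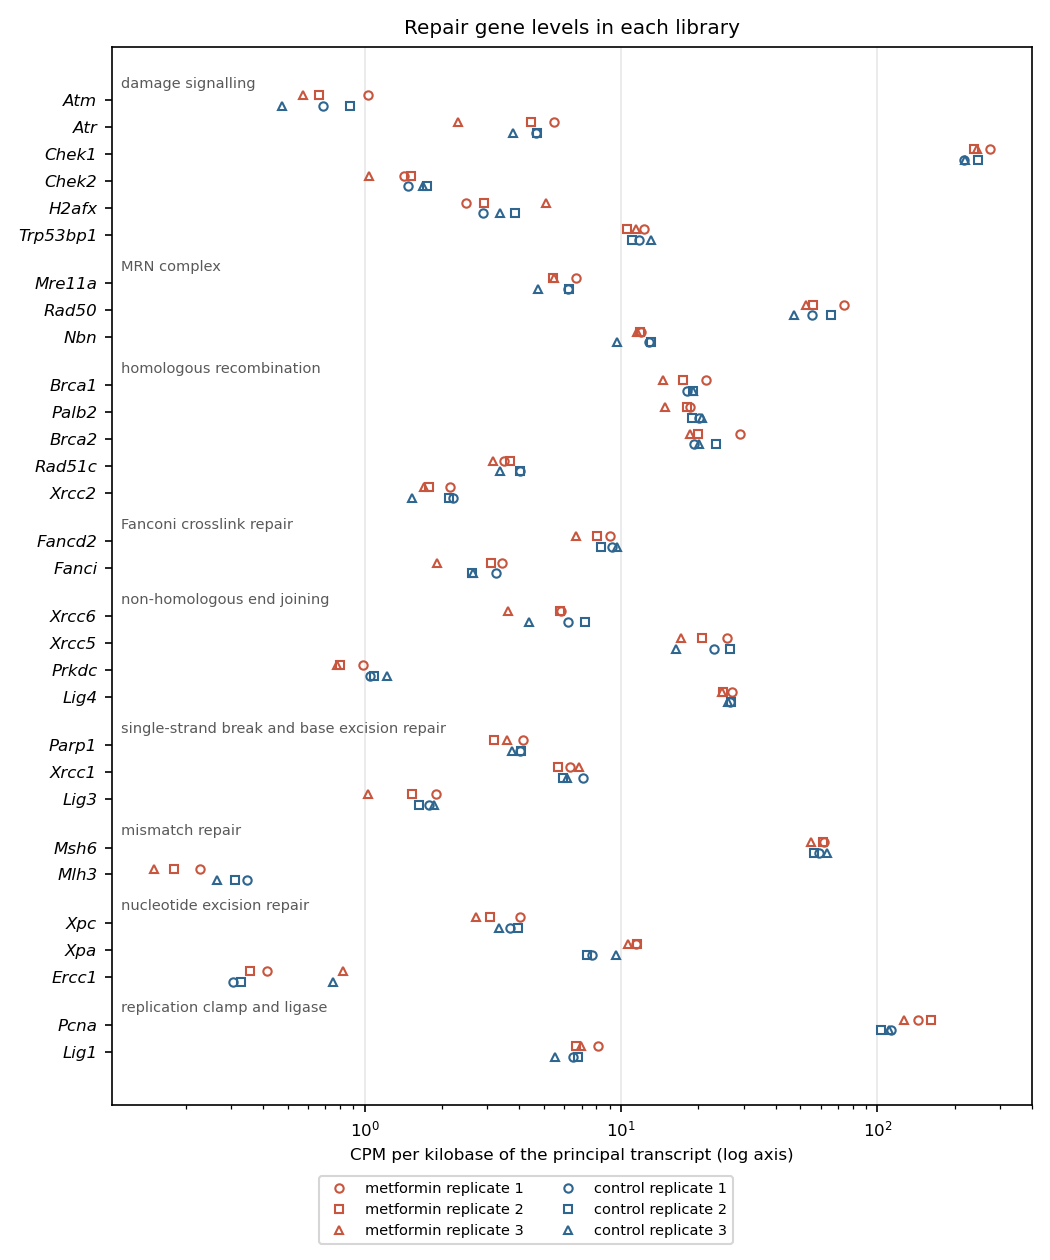
Level of each of the 30 repair genes in each library, as CPM per kilobase of the principal transcript on a log axis, with metformin libraries as red points above the blue control libraries and the replicate shown by the marker shape. Chek1, Pcna, Msh6 and Rad50 stand highest and Mlh3 lowest, and for most genes the red and blue points lie over each other.

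The deposited FPKM values order some of these genes otherwise. The gene length that they imply equalled the sum of all distinct annotated exons, with overlapping exons of different transcripts counted again, to within 0.1% for 11689 of 12000 genes (97.4%), and it equalled the merged exon length for 2365 (19.7%). Genes with many overlapping exons are thereby understated: the implied length was 2.26 times the merged exons for Lig3, 1.65 times for Xrcc1 and 1.60 times for Brca2, but 1.00 times for H2afx, which has a single exon. Xrcc1 was 15th of the 30 genes per kilobase of the principal transcript and 22nd by deposited FPKM, and H2afx was 22nd and 14th. Comparisons between libraries are untouched by this, since the length of a gene is the same in each.

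A promoter feature of some of these genes and their 3' ends are shown next, because the first is known from the cell cycle and the second bears on what poly(A) priming captures. E2F transcription factors drive S-phase and repair genes in dividing cells through sites close to the start of transcription. RefSeq promoter windows (GRCm38.p6, 250 bases before to 50 after the start) were at hand for 23 of the 30 genes; H2afx, Rad50, Nbn, Xrcc2, Fancd2, Prkdc and Xpc had none. The words TTTGGCGC, TTTCCCGC, TTTGCCGC and TTTCGCGC were searched on both strands. They occurred in 6 of the 23 genes (26.1%), against 704 of 27025 genes with a window (2.60%). That background takes every gene with a window, whether tested here or not, so it is not matched to the repair genes in expression. The matches stand in capitals below, read along the gene's strand, Chek2 at chr5:110839820-110839849 (+), Brca2 at chr5:150522442-150522471 (+), Rad51c at chr11:87404941-87404970 (−), Xrcc6 at chr15:82016312-82016341 (+), Msh6 at chr17:87975054-87975083 (+) and Lig1 at chr7:13278841-13278870 (+). Rad51c has a further match in the window of another start.
Chek2: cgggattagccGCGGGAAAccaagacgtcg
Brca2: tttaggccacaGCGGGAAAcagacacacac
Rad51c: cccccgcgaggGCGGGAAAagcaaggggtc
Xrcc6: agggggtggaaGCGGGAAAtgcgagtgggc
Msh6: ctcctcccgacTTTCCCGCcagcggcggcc
Lig1: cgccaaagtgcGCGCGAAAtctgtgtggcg
In 5 of these 6 lines, all but that of Lig1, the match is TTTCCCGC or its reverse complement. The 6 genes had log2 fold changes between -0.30 and 0.21 (median -0.08), and the 16 tested genes with a window and no match between -0.72 and 0.45 (median -0.05). The levels of the 6 ran from 1.48 CPM per kilobase for Chek2 to 59.5 for Msh6. A match is a description of the letters and not a binding site.

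In maturing oocytes, messages with a cytoplasmic polyadenylation element (CPE) near their 3' end are known to gain longer tails. The CPE words TTTTAT and TTTTAAT were searched on the sense strand in the last 100 bases of the 3' UTR of the principal transcript. A match was found in 3 of the 26 repair genes with at least that much 3' UTR (11.5%), against 2106 of 9912 tested protein-coding genes (21.2%). The 3 sites are shown with the CPE in capitals, H2afx at chr9:44336027-44336056 (+), Brca2 at chr5:150569697-150569726 (+) and Xpc at chr6:91489327-91489356 (−) of GRCm38.
H2afx: ttaatgggctaaTTTTATtaaaggatcgtt
Brca2: ctacaactatcaTTTTATatacaaaataaa
Xpc: aggaaagagttcTTTTATaggacctccagg
The CPE began 39 bases from the annotated end in H2afx, 38 in Brca2 and 40 in Xpc, and in H2afx it overlaps the polyadenylation signal ATTAAA. The signals AATAAA or ATTAAA stood in the last 50 bases of 20 of the 26 genes (76.9%), against 80.5% of the tested protein-coding genes. The median log2 fold change was 0.05 for the 3 genes with a CPE and -0.06 for the 23 without, beside 0.00 and 0.01 over all 2106 and 7806 genes of either kind. 

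Pcna encodes the sliding clamp that tethers DNA polymerases and ligase 1 to DNA and that gathers repair enzymes at the fork. It lies at chr2:132249162-132253314 on the minus strand of GRCm38 (ENSMUSG00000027342). Pcna had 218, 246 and 193 CPM in the metformin libraries, against 171, 156 and 169 CPM in the control libraries. The lowest metformin library stood above the highest control library. The means were 219 ± 26.5 CPM in metformin and 165 ± 8.26 CPM in control, a log2 fold change of 0.41 (SE 0.137, 95% interval 0.11 to 0.70; 1.33-fold), with an unadjusted p of 0.0120 and an adjusted p of 1.00 by edgeR. Leaving out any single library gave between 0.31 and 0.49.

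The reads of Pcna are, however, shared with a near-identical copy. Pcna-ps2 is a processed pseudogene at chr19:9283380-9284160 (+) whose 781 bases align without a gap to the Pcna message, from base 280 of the principal transcript, and differ from it at 6 bases (99.2% identity). The aligned stretch is 51.4% of the 1518 bases of the message, and the longest run without a difference is 246 bases, so a read inside it can match both. A pair of the stretches that do tell them apart is shown with the differing base in capitals, Pcna at chr2:132252864-132252903 (−) and chr2:132251373-132251412 (−), and Pcna-ps2 at chr19:9283512-9283551 (+) and chr19:9283792-9283831 (+).
Pcna: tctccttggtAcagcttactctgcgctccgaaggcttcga
Pcna-ps2: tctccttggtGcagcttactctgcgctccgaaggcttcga
Pcna: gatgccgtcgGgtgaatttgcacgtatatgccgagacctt
Pcna-ps2: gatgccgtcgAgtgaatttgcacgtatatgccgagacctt
Each stretch of 40 bases holds a single difference. How reads that match both places were counted is not given in the sources used here.

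Pcna-ps2 was listed at 166, 185 and 206 CPM in the metformin libraries, against 199, 178 and 200.3 CPM in the control libraries. The groups overlapped; edgeR gave a log2 fold change of -0.05, an SE of 0.135 and an unadjusted p of 0.710. The sum of Pcna and Pcna-ps2 was 384, 432 and 399 CPM in the metformin libraries, against 370.2, 334 and 369 CPM in the control libraries. The groups still did not overlap, but edgeR gave the sum a log2 fold change of 0.18, smaller than the 0.41 of Pcna alone. For the sum the SE was 0.125 and the unadjusted p was 0.181 by edgeR. Pcna held 56.8%, 57.0% and 48.4% of the pair's reads in the metformin libraries, against 46.3%, 46.7% and 45.7% in the control libraries. Metformin replicate 3 thus lay nearer to the control libraries than to the other metformin libraries in this share. The value of Pcna given above is uncertain by the difference between these readings.

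**Figure D3:**
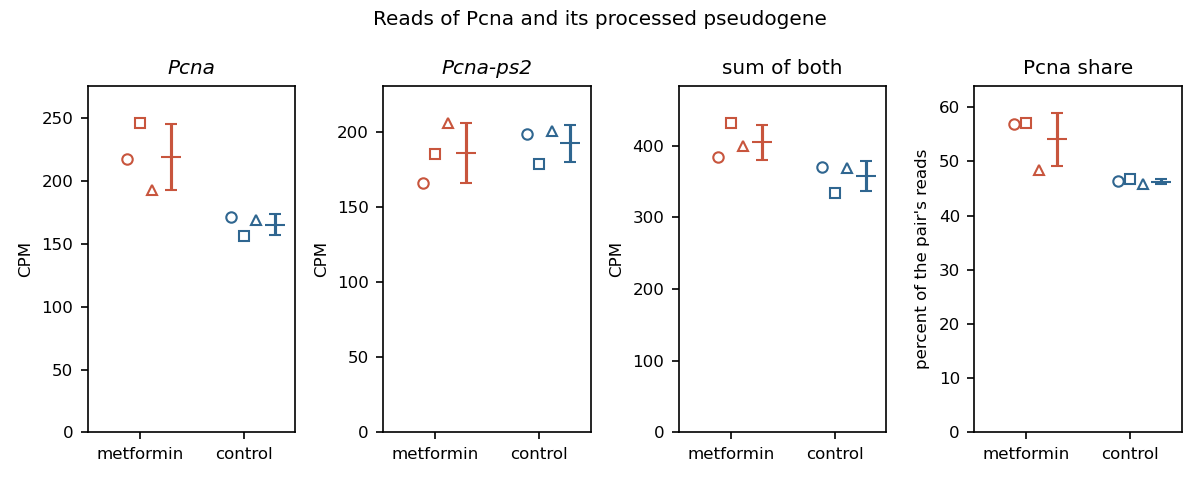
CPM of Pcna, of its processed pseudogene Pcna-ps2 and of their sum, and the percent of the pair's reads listed under Pcna, in each metformin and control library, with the mean and SD of 3 libraries. Pcna and the sum lie higher in every metformin library than in any control library, whereas Pcna-ps2 overlaps.

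Lig1, the ligase that joins Okazaki fragments and closes long-patch repair, had 25.9, 21.2 and 22.1 CPM in the metformin libraries, against 20.6, 21.6 and 17.6 CPM in the control libraries. The groups overlapped (log2 fold change 0.21, 95% interval -0.18 to 0.60). Pcna and Lig1 together summed to 244, 267 and 215 CPM in metformin, against 192, 178 and 186 CPM in control libraries, a sum that follows Pcna. Of 10 further genes of the clamp and polymerase group, all were tested and 0 were called, 7 being fitted higher and 3 lower. The highest of them was Pold3, a subunit of DNA polymerase delta, at 265 ± 23.1 CPM in metformin and 255 ± 37.8 CPM in control. Rfc2, a subunit of the clamp loader, had the smallest unadjusted p of this group, 0.112 by edgeR, at 1.37 ± 0.384 CPM in metformin and 2.12 ± 0.428 CPM in control.

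Among the damage signalling genes the ATR and CHEK1 branch carried far more message than the ATM and CHEK2 branch, mainly through Chek1. Chek1, the checkpoint kinase downstream of ATR (chr9:36708482-36727065, minus strand), had 1045, 905 and 927 CPM in the metformin libraries, against 827, 939.9 and 830.0 CPM in the control libraries. Control replicate 2 stood among the metformin values, so the groups overlapped. The means were 959 ± 75.3 CPM in metformin and 866 ± 64.4 CPM in control, a log2 fold change of 0.15 (SE 0.132, 95% interval -0.14 to 0.44). Chek2, the kinase downstream of ATM, had 3.23, 3.44 and 2.35 CPM in the metformin libraries, against 3.36, 3.96 and 3.82 CPM in the control libraries. Only control replicate 1 reached into the metformin range (log2 fold change -0.30, 95% interval -0.89 to 0.29), and the values rested on 23 to 37 reads a library.

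The ratio of Chek1 to Chek2, per kilobase, was 194, 158 and 236 in the metformin libraries, against 147, 142 and 130.2 in the control libraries, without overlap. This ratio was chosen after its values were seen and is given with no test; 3 against 3 libraries cannot go below an exact permutation p of 0.1. Atr, the kinase that senses single-stranded DNA, had 44.2, 36.2 and 18.7 CPM in metformin, against 37.5, 38.0 and 30.6 CPM in control libraries. Metformin replicate 3 was the lowest of the 6, and the others overlapped (log2 fold change -0.10, 95% interval -0.71 to 0.52). Atm, the kinase that responds to double-strand breaks, had 10.1, 6.48 and 5.63 CPM in metformin, against 6.73, 8.59 and 4.65 CPM in control libraries (log2 fold change 0.16, 95% interval -0.49 to 0.80). Per kilobase, Atr stood at 5.35 ± 1.36 times Atm in metformin and at 6.67 ± 1.30 times in control libraries. This ratio depends on the length used. The principal transcript of Atr has 8102 bases and its merged exons 23629, against 9787 and 10338 for Atm. The deposited FPKM averaged 1.23 for Atr and 0.586 for Atm, which lie closer together.

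Trp53bp1, which encodes 53BP1, a scaffold that steers breaks toward end joining, was steady at 118, 101 and 110.3 CPM in metformin, against 112, 106 and 125 CPM in control libraries (log2 fold change -0.06, 95% interval -0.36 to 0.24). Of its exon bases, 15% are shared with Tubgcp4 on the opposite strand, a gene of 16 to 43 reads a library. H2afx, the histone variant that is phosphorylated around breaks, had 3.42, 4.03 and 7.06 CPM in metformin, against 4.0, 5.31 and 4.65 CPM in control libraries, with both the lowest and the highest value in the metformin group. It shares about 90% to 96% of its sequence over stretches of at least 200 bases with many H2A histone genes, so its few reads are uncertain. Of 19 further signalling genes, 18 were tested and 0 called, 13 fitted higher and 5 lower. Tipin, a partner of Timeless at the fork, was the most abundant by FPKM at 447 ± 87.2 CPM in metformin and 411 ± 44.3 CPM in control. Babam2, a scaffold of the BRCA1-A complex, had 7.46 ± 0.545 CPM in metformin and 9.55 ± 0.434 CPM in control libraries without overlap (log2 fold change -0.36, unadjusted p of 0.103 by edgeR).

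The 3 messages of the MRN complex, which binds DNA ends and activates ATM, were held at unequal levels. Rad50, the long coiled-coil ATPase, had 382, 289 and 270.2 CPM in the metformin libraries, against 285, 339.9 and 244 CPM in the control libraries. Mre11a, the nuclease, had 22.0, 17.9 and 18.0 CPM in metformin, against 20.4, 20.5 and 15.5 CPM in control libraries. Nbn, the subunit that recruits ATM, had 30.2, 29.9 and 29.3 CPM in metformin, against 32.5, 33.2 and 24.5 CPM in control libraries. All 3 overlapped between the groups, with log2 fold changes of 0.12, 0.04 and -0.01. Per kilobase, Rad50 stood at 10.3 ± 0.758 times Mre11a in metformin and at 9.85 ± 0.849 times in control, and the ratio lay between 8.92 and 11.1 in all 6 libraries. Mre11a stood at 0.499 ± 0.0545 times Nbn in metformin and at 0.482 ± 0.00684 times in control. These ratios depend on the length used: the deposited FPKM averaged 45.4 for Rad50, 2.60 for Mre11a and 10.2 for Nbn. A small part of the Mre11a exons (2.60%) is shared with the opposite strand of Ankrd49, a gene of 1285 to 1880 reads a library, whose reads the unstranded kit cannot separate there.

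In homologous recombination, BRCA1, PALB2 and BRCA2 act in a chain at resected ends, and BRCA1 in particular has been studied in ageing oocytes. Palb2 (chr7:122107262-122132985, minus strand, ENSMUSG00000044702) had 69.7, 68.0 and 55.6 CPM in the metformin libraries, against 75.4, 70.8 and 77.8 CPM in the control libraries. All metformin libraries lay lower, the nearest pair being 69.7 and 70.8 CPM. The means were 64.4 ± 7.72 CPM in metformin and 74.7 ± 3.56 CPM in control, a log2 fold change of -0.21 (SE 0.149, 95% interval -0.54 to 0.11, unadjusted p of 0.180 by edgeR). Brca1 had 141, 115 and 95.9 CPM in metformin, against 118, 126 and 125 CPM in control libraries. The metformin libraries lay on both sides of a narrow control range (117 ± 22.8 CPM in metformin and 123 ± 3.93 CPM in control; log2 fold change -0.07, 95% interval -0.41 to 0.28). Brca2 had 312, 213 and 199.6 CPM in metformin, against 206, 251 and 215 CPM in control libraries, with metformin replicate 1 above all others (log2 fold change 0.11, 95% interval -0.28 to 0.50).

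Per kilobase of the principal transcript, Brca1 stood at 1.04 ± 0.106 times Palb2 in metformin and at 0.941 ± 0.0620 times in control, and Brca2 at 1.31 ± 0.240 times Palb2 in metformin and at 1.05 ± 0.163 times in control. These ratios depend on the length used: the deposited FPKM averaged 10.3 for Brca1 and 10.7 for Brca2, against 6.20 for Palb2. The other members of the pathway were lower. Rad51c had 13.7, 14.5 and 12.5 CPM in metformin, against 15.9, 15.8 and 13.2 CPM in control libraries. Xrcc2 had 6.94, 5.80 and 5.53 CPM in metformin, against 7.15, 6.90 and 4.96 CPM in control libraries. Both overlapped (log2 fold changes -0.14 and -0.06). Of 29 further recombination genes, 28 were tested and 0 called, 17 fitted higher and 11 lower. Sfr1 and Swi5 encode the 2 partners of a recombination accessory complex, and both were abundant. Sfr1 averaged 737 ± 73.2 CPM in metformin and 715 ± 171 CPM in control, and Swi5 251 ± 30.7 CPM in metformin and 213 ± 42.9 CPM in control (log2 fold change 0.24, unadjusted p of 0.180 by edgeR, the smallest of this group).

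Fancd2 and Fanci form the pair that is clamped onto DNA at interstrand crosslinks. Fancd2 had 50.0, 44.4 and 36.6 CPM in the metformin libraries, against 50.6, 45.9 and 53.1 CPM in the control libraries (log2 fold change -0.19, 95% interval -0.55 to 0.17). Fanci had 15.9, 14.4 and 8.90 CPM in metformin, against 15, 12.1 and 12.3 CPM in control libraries (log2 fold change -0.01, 95% interval -0.53 to 0.51). In both, metformin replicate 3 was the lowest of the 6 libraries and the rest overlapped. Per kilobase Fancd2 stood at 2.90 ± 0.489 times Fanci in metformin and at 3.22 ± 0.403 times in control. Of 16 further Fanconi genes, 15 were tested and 0 called, 8 fitted higher and 7 lower. Among these, Fancm, the translocase that anchors the core complex at stalled forks, had 52.3, 49.5 and 51.2 CPM in metformin, against 36.8, 41.2 and 30.9 CPM in control libraries. These groups did not overlap (log2 fold change 0.49, SE 0.160, unadjusted p of 0.0101 and adjusted p of 1.00 by edgeR). Dclre1a, a nuclease of crosslink repair, was the most abundant at 856 ± 82.1 CPM in metformin and 847 ± 8.08 CPM in control.

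All 4 end joining genes were fitted lower in metformin oocytes, none past the test, against 47.5% of all genes tested. Both Fanconi genes, all 3 single-strand break repair genes and both mismatch repair genes were also fitted lower, again none past the test. Of all these, Xrcc5, Fanci, Xrcc1 and Msh6 changed sign with single libraries left out. The further genes of these pathways were split. In Fanconi repair 8 were fitted higher and 7 lower, and in mismatch repair 4 higher and 1 lower. In single-strand break repair 7 were fitted higher and 9 lower, and in end joining 2 higher and 6 lower. Prkdc, the catalytic subunit of DNA-PK that bridges broken ends (chr16:15637866-15842235, plus strand, ENSMUSG00000022672), had 12.5, 10.1 and 9.82 CPM in the metformin libraries, against 13.2, 13.7 and 15.4 CPM in the control libraries. Every metformin library lay lower than every control library. The means were 10.8 ± 1.44 CPM in metformin and 14.1 ± 1.14 CPM in control, a log2 fold change of -0.38 (SE 0.195, 95% interval -0.81 to 0.04), with an unadjusted p of 0.0730 and an adjusted p of 1.00 by edgeR. Leaving out single libraries gave between -0.50 and -0.32. The Ku subunits bind the ends first. Xrcc6, Ku70, had 19.1, 19.1 and 11.9 CPM in metformin, against 20.4, 23.7 and 14.4 CPM in control libraries. Of its exon bases, 7.69% are shared with Desi1 on the opposite strand, a gene of 35 to 124 reads a library. Xrcc5, Ku80, had 65.8, 52.9 and 43.9 CPM in metformin, against 58.9, 68.1 and 41.8 CPM in control libraries.

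With single libraries left out the log2 fold change of Xrcc5, -0.05 with all 6, lay between -0.23 and 0.10. Both Ku messages overlapped between the groups and were low in replicate 3 of each group. Per kilobase, Xrcc5 stood at 4.26 ± 0.616 times Xrcc6 in metformin and at 3.73 ± 0.0304 times in control. This ratio depends on the length used: the deposited FPKM averaged 21.8 for Xrcc5 and 2.63 for Xrcc6. The 2 proteins work as a dimer. Lig4, which seals the joined ends, was the steadiest of the 4 at 136, 126 and 124 CPM in metformin, against 134, 135 and 131 CPM in control libraries (log2 fold change -0.05, 95% interval -0.33 to 0.23). Of the 3 DNA ligases Lig4 was thus the most abundant, at 18.3 ± 5.13 times Lig3 in metformin and 15.2 ± 1.29 times in control, per kilobase. The size of such a ratio depends on the length used, and the deposited FPKM averaged 16.1 for Lig4, 3.36 for Lig1 and 0.572 for Lig3. Against Lig1, Lig4 stood at 3.31, 3.75 and 3.54 times in the metformin libraries and at 4.10, 3.95 and 4.70 times in the control libraries, without overlap. This ratio is given with no test, and Lig4 and Lig1 each overlapped between the groups on their own. Of 9 further end joining genes, 8 were tested and 0 called, 2 fitted higher and 6 lower. Xrcc4, the partner of ligase 4, had 59.2 ± 10.5 CPM in metformin and 51.7 ± 2.88 CPM in control, and Polm, a gap-filling polymerase, 14.7 ± 4.62 CPM in metformin and 19.2 ± 1.85 CPM in control (unadjusted p of 0.131 by edgeR).

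The genes of single-strand break repair were all of modest level. Parp1, the sensor that marks nicks with poly(ADP-ribose), had 16.1, 12.4 and 13.8 CPM in metformin, against 15.6, 15.7 and 14.6 CPM in control libraries. Xrcc1, the scaffold recruited to it, had 16.0, 14.3 and 17.3 CPM in metformin, against 17.9, 14.9 and 15.5 CPM in control libraries. Lig3, the ligase bound to XRCC1 and also the ligase of mitochondria, had 10.9, 8.84 and 5.94 CPM in metformin, against 10.3, 9.38 and 10.7 CPM in control libraries. All 3 overlapped, with log2 fold changes of -0.12, -0.02 and -0.24. Xrcc1 stood at 4.58 ± 1.83 times Lig3 per kilobase in metformin and at 3.64 ± 0.335 times in control, the wide SD coming from metformin replicate 3. This ratio depends on the length used: the deposited FPKM averaged 1.66 for Xrcc1 and 0.572 for Lig3. Of the exon bases of Lig3, 25.1% is shared with Rffl on the opposite strand, a gene of 223 to 406 reads a library, so the count of Lig3 is uncertain. Of 20 further genes, 16 were tested and 0 called, 7 fitted higher and 9 lower. Neil3, a DNA glycosylase, was the most abundant at 574 ± 114 CPM in metformin and 605 ± 32.8 CPM in control. Apex2, an abasic site endonuclease, had 25.1, 13.2 and 29.2 CPM in metformin, against 14.9, 11.6 and 11.8 CPM in control libraries (log2 fold change 0.81, SE 0.274, unadjusted p of 0.0126 and adjusted p of 1.00 by edgeR), and metformin replicate 2 lay among the control values.

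The mismatch repair genes held both an abundant member and the scarcest per kilobase. Msh6, which encodes a protein that recognises base mismatches, had 262, 260.2 and 234 CPM in the metformin libraries, against 252, 239.9 and 269.7 CPM in the control libraries. It was among the most tightly bounded of all the genes, with a log2 fold change of -0.01 and a 95% interval of -0.29 to 0.27. Mlh3, which acts on crossover intermediates in meiosis (chr12:85234520-85270599, minus strand, ENSMUSG00000021245), had 1.24, 0.982 and 0.819 CPM in the metformin libraries, against 1.89, 1.70 and 1.45 CPM in the control libraries. The groups did not overlap, but the values rested on 13, 10 and 8 reads in metformin and 18, 15 and 14 reads in control libraries. The log2 fold change was -0.72 (SE 0.372, 95% interval -1.53 to 0.10), with an unadjusted p of 0.0787 and an adjusted p of 1.00 by edgeR. A floor of 3 reads corresponded to between 0.285 and 0.339 CPM. Of 5 further mismatch repair genes all were tested and 0 called, 4 fitted higher and 1 lower. The highest by deposited FPKM, Pms1, had 111 ± 8.12 CPM in metformin and 109.7 ± 12.1 CPM in control.

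Nucleotide excision repair removes bulky adducts: XPC finds them, XPA verifies them, and ERCC1 with XPF makes the 5' incision. Xpa (chr4:46155347-46196311, minus strand, ENSMUSG00000028329) had 10.9, 11 and 10.1 CPM in the metformin libraries, against 7.36, 7.01 and 9.09 CPM in the control libraries. All metformin libraries lay higher, with 115, 112 and 99 reads in metformin and 70, 62 and 88 reads in control libraries. The means were 10.7 ± 0.485 CPM in metformin and 7.82 ± 1.11 CPM in control, a log2 fold change of 0.45 (SE 0.206; 1.37-fold), with an unadjusted p of 0.0502 and an adjusted p of 1.00 by edgeR. Leaving out single libraries gave between 0.38 and 0.57. Of its exon bases, 4.07% are shared with Ncbp1 on the opposite strand, a gene of 3 to 23 reads a library.

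Xpc did not go the same way, with 14.6, 11.2 and 9.82 CPM in metformin, against 13.4, 14.4 and 12.1 CPM in control libraries (log2 fold change -0.16, 95% interval -0.62 to 0.30). Ercc1 had 6, 5 and 11 reads in the metformin libraries, against 4, 4 and 10 in the control libraries, too few for the test. These reads amount to 0.729 ± 0.346 CPM in metformin and 0.635 ± 0.345 CPM in control. Ercc4, which encodes its partner XPF and was chosen after its values were seen, had 2.11 ± 0.216 CPM in metformin and 2.30 ± 0.643 CPM in control. Of 18 further genes, 17 were tested and 0 called, 8 fitted higher and 9 lower. Ddb1, an adaptor of the ubiquitin ligase that opens damaged chromatin, had 292 ± 11.8 CPM in metformin and 286 ± 20.7 CPM in control. Uvssa, a factor of transcription-coupled repair, had 68.3, 56.0 and 48.3 CPM in metformin, against 7.15, 42.7 and 7.23 CPM in control libraries. Its groups did not overlap, yet the control libraries were split, with replicate 2 near the metformin level. With all libraries its log2 fold change was 1.60 (SE 0.839, unadjusted p of 0.121 and adjusted p of 1.00 by edgeR), and without control replicate 2 it was 3.00 with an adjusted p of 0.000904 by edgeR.

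The spread within the metformin group had a common pattern across the repair genes. Metformin replicate 3 was the lowest of its group for 22 of 29 genes, replicate 2 for 6 and replicate 1 for 1, against 36.0%, 28.8% and 35.2% of all genes tested. In the control group replicate 3 was the lowest for 14, replicate 2 for 9 and replicate 1 for 6, against 35.3%, 35% and 29.7% of all genes. The median deviation of the repair genes from their mean over the 6 libraries was 0.16, -0.05 and -0.18 (log2) in metformin replicates 1, 2 and 3, and 0.10, 0.11 and -0.04 in control replicates 1, 2 and 3. For the 13 genes with a transcript of 4 kb or more it was 0.24, -0.06 and -0.31 in the metformin replicates, and for the 16 shorter genes 0.15, -0.02 and -0.07. In control replicates 1, 2 and 3 the longer genes stood at 0.03, 0.07 and 0.06, and the shorter at 0.10, 0.13 and -0.12.

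Among all genes of at least 10 CPM, deviations moved with transcript length most in metformin replicates 1 and 3. They also moved with length, though less, in control replicates 2 and 3. In metformin replicates 1, 2 and 3 the median deviation was -0.12, 0.01 and 0.17 for the 1460 genes with a transcript under 2 kb, and 0.17, -0.02 and -0.12 for the 417 genes of 8 kb or more. In metformin replicate 2 and control replicate 1 the 4 length classes lay within 0.03 of 0, while the repair genes of control replicate 1 stood at 0.10. In control replicates 1, 2 and 3 the median deviation was -0.03, -0.07 and 0.07 for genes under 2 kb, and -0.03, 0.05 and -0.03 for those of 8 kb or more. Many repair genes have long messages, Prkdc, Atm and Brca2 among them, and the part of length in their spread was not tested. Over the 22 repair genes of at least 10 CPM the median coefficient of variation within a group was 12.7% in metformin and 9.16% in control libraries, and over all 6668 such genes it was 14.8% in metformin and 11.8% in control.

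**Figure D4:**
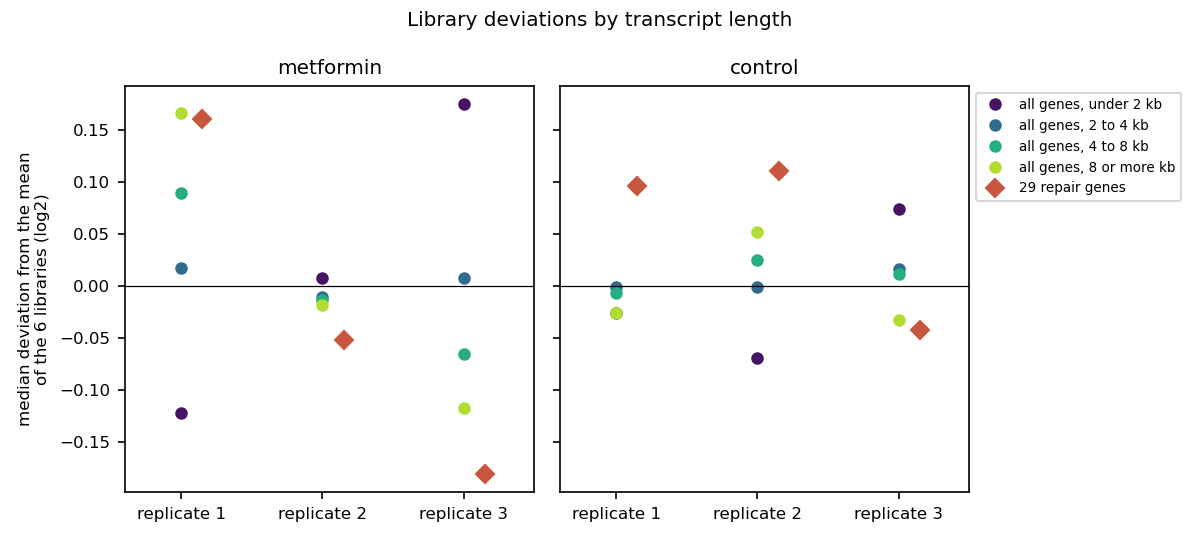
Median deviation (log2) of each library from the mean of the 6 libraries, for all genes of at least 10 CPM in 4 classes of transcript length and for the 29 tested repair genes (red diamonds), with the metformin replicates left and the control replicates right. In metformin replicates 1 and 3 the diamonds lie on the side of the genes of 8 kb or more, at 0.16 and -0.18.

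Summed by pathway, the clamp and ligase pair was the one without overlap between the groups, at 242 ± 26.1 CPM in metformin and 185 ± 7.28 CPM in control. That sum follows Pcna, whose count is uncertain because of Pcna-ps2, and Lig1 overlapped on its own. Damage signalling summed to 1117 ± 92.8 CPM in metformin and 1030.5 ± 61.7 CPM in control. Homologous recombination summed to 443 ± 90.6 CPM in metformin and 443 ± 24.7 CPM in control, the MRN complex to 363 ± 62.3 CPM in metformin and 338 ± 54.9 CPM in control, and mismatch repair to 253 ± 15.8 CPM in metformin and 256 ± 14.9 CPM in control. End joining summed to 210.1 ± 21.9 CPM in metformin and 223 ± 19.2 CPM in control, and Fanconi repair to 56.8 ± 10.3 CPM in metformin and 63.0 ± 4.33 CPM in control. Single-strand break repair summed to 38.5 ± 3.93 CPM in metformin and 41.5 ± 1.96 CPM in control, and nucleotide excision repair to 23.3 ± 2.59 CPM in metformin and 21.7 ± 0.547 CPM in control. Each of these sums is led by its most abundant gene.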

How the data were processed

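RNA from 3 metformin and 3 control oocyte samples was sequenced with the SMART-Seq HT kit, which is poly(A)-primed, unstranded and without molecular identifiers, per the labels' protocols. CASAVA 1.8, TopHat2 2.0.6 and the build mm10 appear in the submitters' processing notes. What counted the reads, and on which annotation, is not given in the sources used here. Per the file headers, the authors deposited raw read counts and FPKM values for each gene in every library. The counts were tested as deposited; FPKM values served only for levels between genes. Symbols came from GENCODE M21 (GRCm38, the assembly mm10 names) for 55141 of 55487 identifiers.

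All 6 libraries entered a quasi-likelihood test in edgeR (version 4.0.16 under R 4.3.3, fitted robustly, with TMM scaling, filterByExpr at a minimum count of 10, group only, Benjamini-Hochberg threshold 0.05). Adjusted p-values cover all 12793 genes tested, and 95% intervals come from that fit. CPM values use TMM-scaled library sizes. The labels name separate samples but no separate animals or cultures, so the spread behind the p-values may be technical. Floors of 3 counts cover counting error only. The script was tested on simulated counts.

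All 30 genes are named, and from a further list of 160 repair gene names (1 unmatched), in each pathway, the tested gene with the smallest p and that with the highest FPKM; some items are not reported here. The unmatched name, Claspn, was a misspelling of Clspn, a damage signalling gene that was therefore not read. The genes, lists and ratios were chosen with earlier results of these data known. Copies were sought with BLAST at 90% identity over 200 bases. Alternatives covered scaling, filters, DESeq2 1.42.0, limma-voom (limma 3.58.1), a replicate block, and each library left out.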

Additional observations from a re-analysis of the deposited data

How the results depend on the processing

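Repair genes called numbered 0 in every setting run: RLE, upper-quartile and unscaled library sizes, no filter, a filter at 10 CPM, DESeq2, limma-voom, a non-robust fit, the replicate block, each library left out, and Pcna summed with Pcna-ps2 (chosen after seeing the data). Over all genes 5 were called, 8 with DESeq2, 7 with the replicate block, and 5 to 12 with each library left out. The further repair list had 0 calls, and 0 to 1 with each library left out, the call being Uvssa without control replicate 2. Labels share replicate numbers but name no batch, and the main fit did not take the numbers as pairs. Deviations of same-numbered libraries correlated at 0.144, 0.0441 and 0.20, and each library correlated best with its own number. Metformin replicate 1 with control replicate 3 gave -0.171, and metformin replicate 3 with control replicate 1 gave -0.133. With the replicate block 296 genes had an unadjusted p under 0.05 by edgeR, against 192 without it. Whether the numbers mark pairs is not settled by these values. Of 429 recomputed fold changes of repair genes, 26 changed sign, in 14 genes. With limma-voom H2afx was at -0.012 and Nbn at 0.000247. With each library left out the log2 fold change ran from -0.13 to 0.38 for Atm, -0.37 to 0.18 for Atr, -0.32 to 0.25 for H2afx, -0.11 to 0.011 for Trp53bp1, -0.082 to 0.10 for Mre11a, -0.051 to 0.24 for Rad50, -0.14 to 0.062 for Nbn, -0.22 to 0.059 for Brca1, -0.12 to 0.23 for Brca2, -0.20 to 0.038 for Xrcc2, -0.17 to 0.21 for Fanci, -0.23 to 0.10 for Xrcc5, -0.087 to 0.058 for Xrcc1 and -0.051 to 0.040 for Msh6. The cause was not tested. The other 15 genes, with Pcna, Xpa, Prkdc, Mlh3 and Palb2 among them, kept their sign. Depth limits Mlh3, Ercc1 and Chek2 most.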

Other observations

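Genes of 3 further repair classes that the list of 30 leaves out were read from the same fit, and 0 were called. In translesion synthesis and damage tolerance, 13 of 14 genes were tested, 5 fitted higher and 8 lower in metformin. Of the E2 enzymes that work with RAD18 on PCNA, Ube2a had 24.8, 14.6 and 18.6 CPM in metformin, against 33.3, 21.4 and 24.1 CPM in control libraries (log2 fold change -0.44, SE 0.235, unadjusted p of 0.0874 by edgeR), and Ube2b averaged 33.5 ± 2.73 CPM in metformin and 32.2 ± 1.54 CPM in control (SD, n = 3 each). In direct reversal, Alkbh2, a demethylase of alkylated DNA, averaged 34.3 ± 4.13 CPM in metformin and 32.1 ± 2.89 CPM in control, with 29.5% of its exon bases shared with Usp30 on the opposite strand; Mgmt and Alkbh3 had too few reads to be tested.

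Meiotic recombination is over long before the egg stage, and 12 of 16 of its genes were still measurable, 7 fitted higher and 5 lower in metformin. Spo11, Top6bl, Dmc1 and Msh5, which make the programmed breaks and act on them, had too few reads to be tested. Sycp3, a component of the synaptonemal complex, was abundant at 304 ± 56.5 CPM in metformin and 295 ± 89.9 CPM in control, with 52.2% of its exon bases shared with Chpt1 on the opposite strand. Trip13, the ATPase that removes HORMA-domain proteins, had 4.66, 5.21 and 5.22 CPM in metformin, against 3.89, 3.51 and 3.10 CPM in control libraries. The groups did not overlap (log2 fold change 0.52, SE 0.243), with an unadjusted p of 0.0536 and an adjusted p of 1.00 by edgeR.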
